A study of Mus musculus with 12 samples.

Results

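Genes of the inflammatory cytokines and of the feedback on nuclear factor kappa B (NF-kB) were followed in subdural CNS-associated macrophages, or sdCAMs, that reside in the leptomeninges and around vessels of the brain. The 10 genes were chosen by name out of 56735 gene names in the count table, with earlier results of these data known. They comprise the pro-inflammatory cytokines Tnf, Il1a, Il1b, Il6 and Il18, the anti-inflammatory cytokine Il10, the antagonist Il1rn, the inflammasome sensor Nlrp3, and the NF-kB feedback inhibitors Nfkbia and Tnfaip3. Of these, 9 passed the filter on low counts among 13724 genes in all, and Il6 did not.

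CD206+ sdCAMs were profiled by bulk RNA-seq from mouse brain freed of the choroid plexuses. All mice had the genotype Mrc1CreERT2/CreERT2:R26tdT/tdT and received tamoxifen 4 weeks before treatment, so that cells in which the CD206 gene Mrc1 drove the inducible Cre at that time, and their progeny, carry the reporter tdTomato (tdT). Treatment lasted 7 days and sorting followed 8 weeks after it. The 3 groups of 4 libraries each are vehicle tdT+ cells, BLZ945 tdT+ cells and, from the same BLZ945 mice, tdT- cells, where BLZ945 blocks the CSF-1 receptor on which these macrophages depend and was given at 200 mg per kg. The tdT+ cells therefore descend from labelled sdCAMs and the tdT- cells do not, or escaped labelling. Mice are named F1, F2, M1 and M2 in each treatment, and the vehicle mice are other animals than the BLZ945 mice. The comparison of tdT- with tdT+ cells asks how repopulating cells of different origin differ. The library names carry the word pre for vehicle and Post for BLZ945, so treatment and whatever else these words mark cannot be told apart in comparisons with vehicle.

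Before the results, some facts of all libraries bear on them. Totals lay between 19969308 and 23395058 counts per library. The tdTomato entry had 0 counts in all 12 libraries, so the reporter gives no check of the labels. The 7 border macrophage markers (Mrc1, Pf4, Cd163, Ms4a7, Cbr2, F13a1 and Lyve1) were counted in every group, with summed levels of 196493 to 223588 normalised counts in vehicle tdT+, 220650.0 to 281881 in BLZ945 tdT+ and 77357 to 128603 in tdT- libraries, and 7 of 7 were lower in tdT- cells against either tdT+ group. The 4 microglial markers (P2ry12, Tmem119, Sall1 and Siglech) summed to 18199.8 to 26919.8 in vehicle tdT+, 33467 to 34984 in BLZ945 tdT+ and 75648 to 174921 in tdT- libraries, and 4 of 4 were higher in tdT- cells against either. The tdT- library F2 stood apart, with 422981 summed normalised counts of 7 neutrophil markers against at most 69.4 in any other library, and 50749 of 5 monocyte markers, of which Vcan was at 0 in every library.

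NF-kB is a family of transcription factors held inactive in the cytoplasm by inhibitors such as IkBα. Signals from tumour necrosis factor, interleukin-1 and bacterial products lead to the degradation of IkBα, and the released factors switch on cytokine genes together with Nfkbia, which encodes IkBα, and Tnfaip3, which encodes the ubiquitin-editing enzyme A20. These inhibitors then shut the signal off. Inflammasomes such as the one built around NLRP3 activate caspase-1, which matures IL-1β and IL-18. Macrophages and microglia are leading sources of these cytokines in the brain.

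Promoters were searched for the element that NF-kB binds. The 250 bases before the gene start were read on both strands for the NF-kB consensus decamer in RefSeq promoters on GRCm38.p6, where 9 of the 10 genes matched and Il10 did not. The consensus stood in 4 of these 9 genes, Il6, Nlrp3, Nfkbia and Tnfaip3, against 4.46% of 27025 genes. Counted by window it stood in 4 of 13, against 3.90% of 32851 windows, since Nlrp3 and Tnfaip3 each also have a window without it. The genes were chosen in part as NF-kB feedback genes, so these shares are given as a description. Below are the matching windows of both feedback inhibitors, and of Il6, the cytokine gene counted in tdT- libraries only. Capitals mark the consensus, and all sequences read in the direction of the gene.
Nfkbia (chr12:55492648-55492897, minus strand): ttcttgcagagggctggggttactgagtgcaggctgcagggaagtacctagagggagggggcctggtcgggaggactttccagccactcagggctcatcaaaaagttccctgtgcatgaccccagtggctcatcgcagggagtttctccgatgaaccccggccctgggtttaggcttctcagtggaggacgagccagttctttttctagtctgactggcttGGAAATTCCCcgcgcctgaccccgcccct
Tnfaip3 (chr10:19015411-19015660, minus strand): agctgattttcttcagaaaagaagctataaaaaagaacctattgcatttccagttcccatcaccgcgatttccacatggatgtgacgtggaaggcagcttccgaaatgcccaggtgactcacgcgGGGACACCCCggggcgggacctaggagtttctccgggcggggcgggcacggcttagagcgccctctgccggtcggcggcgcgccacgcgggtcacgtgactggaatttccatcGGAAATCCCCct
Il6 (chr5:30012864-30013113, plus strand): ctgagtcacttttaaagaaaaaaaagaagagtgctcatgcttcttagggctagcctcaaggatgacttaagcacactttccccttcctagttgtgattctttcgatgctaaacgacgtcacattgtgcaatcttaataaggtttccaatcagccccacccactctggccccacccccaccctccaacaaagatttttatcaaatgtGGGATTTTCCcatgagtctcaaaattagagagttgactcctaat
The match of Nfkbia starts 29 bases before the gene start, that of Il6 44 bases and that of Nlrp3 186 bases before it. Tnfaip3 holds a match at 125 and another at 12 bases. These matches are letters in a window, not measured binding.

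Across the 12 libraries the genes ranged widely in TPM, a level corrected for gene length and library depth. In vehicle tdT+ cells Nfkbia was the highest at 332 ± 78.6 TPM (SD, n = 4), followed by Il18 at 80.2 ± 6.89 TPM and Nlrp3 at 19.4 ± 9.14 TPM. Tnf (9.26 ± 6.93 TPM), Il1b (8.75 ± 4.62), Il1a (8.36 ± 4.59) and Tnfaip3 (7.75 ± 3.41) came next and did not differ from each other beyond their spread. Il10 reached 3.41 ± 3.96 TPM and Il1rn 2.29 ± 1.62 TPM, again with overlapping spread, and Il6 was at 0. Values from here on are normalised counts, that is counts divided by the size factor of the library, and are compared within a gene. In these counts Il18 was the steadiest of the genes counted in vehicle cells, with an SD of 9.98% of its mean. The SD was 23.8% of the mean for Nfkbia and 41.9% to 116% for the other 7 genes that had a count.

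**Figure D1:**
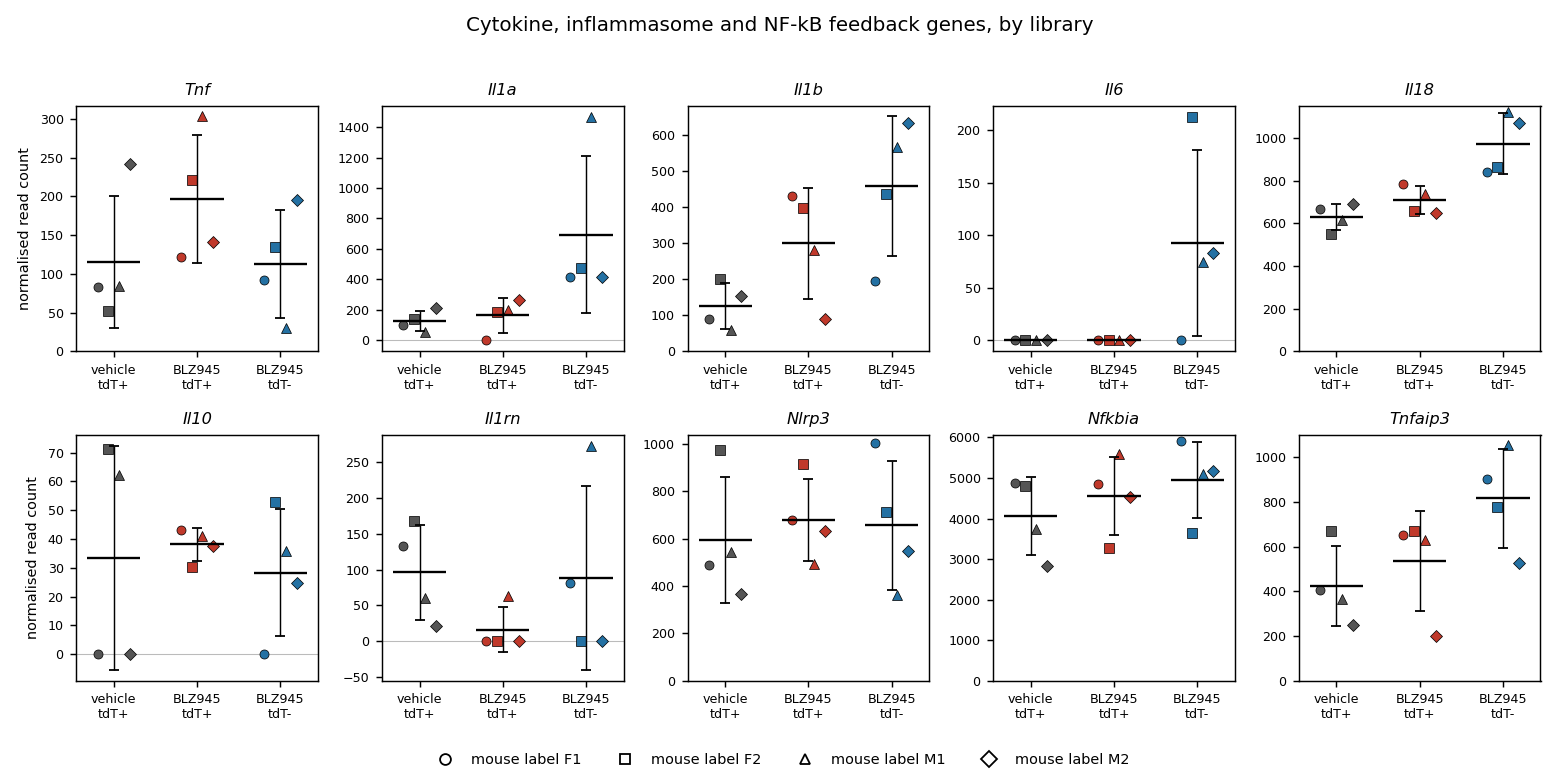
Normalised read counts of the 10 genes in vehicle tdT+, BLZ945 tdT+ and BLZ945 tdT- cells (vertical axes, linear, with separate scales). Each point is a library, its shape gives the mouse label, and horizontal and vertical bars give mean and SD over 4 libraries. Il1a and Il18 were higher in every tdT- than in every tdT+ library, and Il6 was counted in 3 tdT- libraries only.

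Between tdT- and tdT+ cells of BLZ945 mice none of the 9 tested genes passed the test (DESeq2, adjusted p of at most 0.05), where 6.38% of the 13724 genes past the filter did and 2.25% were DEGs, for which the shrunken log2 fold change must also reach 1 in either direction. By edgeR 0 of 9 were called. On counts simulated from spreads that edgeR estimated, 36.6% of DESeq2 calls were false, against 7.04% for edgeR. These shares are not error rates of the calls in the data. The groups did not overlap for 2 of 9, Il1a and Il18, against 9.35% of all genes. The median unshrunken log2 difference was 0.46 over the 9 genes and 0.00 over all genes.

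Between BLZ945 and vehicle tdT+ cells 0 of 9 passed by DESeq2 (background 0.955%, DEGs 0.168%), and edgeR also called 0. None had groups without overlap, against 6.72% of all genes. The median log2 difference was 0.19 against 0.03 over all genes. Between tdT- and vehicle tdT+ cells 2 of 9, Il1b and Il18, were higher (background 6.76%), and Il1b was also a DEG (background 2.55%). Groups without overlap were again Il1a and Il18 (background 9.70%), and edgeR called 0 of 9. The median was 0.28 against 0.03. Both comparisons with vehicle share their control libraries.

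**Figure D2:**
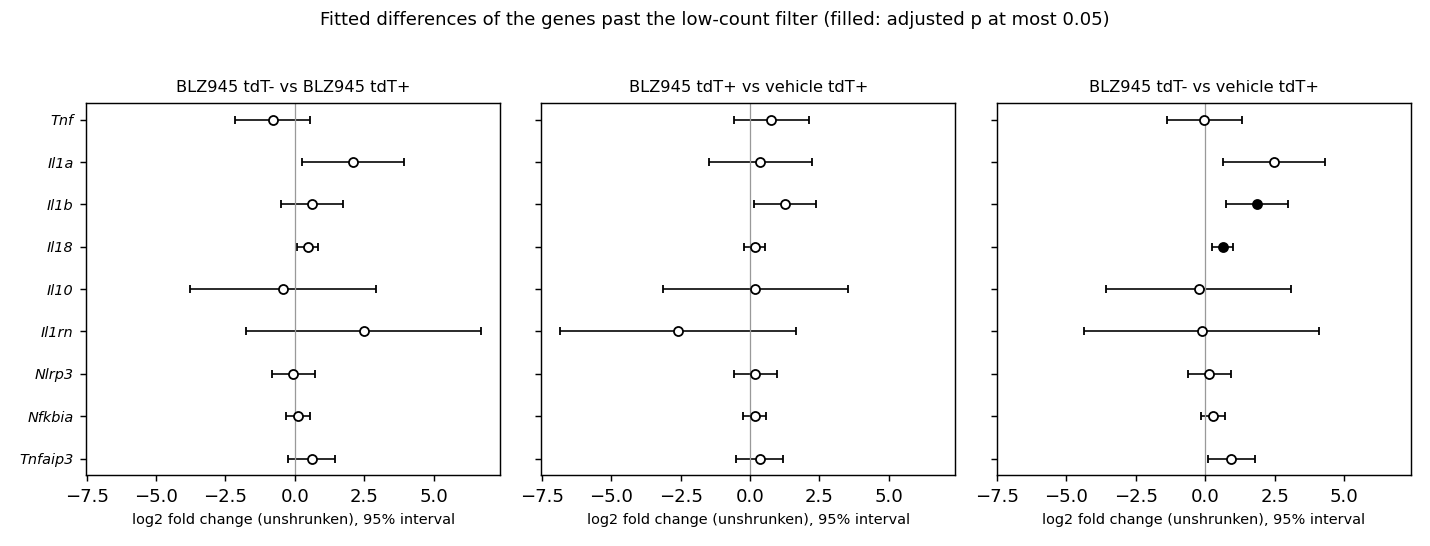
Unshrunken log2 fold changes with 95% intervals (horizontal axis) of the 9 genes past the filter in the 3 comparisons. Filled points passed the test, which in these panels is Il1b and Il18 in tdT- against vehicle tdT+ cells, at 1.87 and 0.63.

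The interleukin-1 ligands were among the genes with the widest differences. Il1b (chromosome 2, 129206490 to 129213059 on GRCm39, minus strand) encodes the secreted ligand that needs caspase-1. It had 90.2, 201, 58.9 and 153 normalised counts in the vehicle libraries F1, F2, M1 and M2, 432, 398, 281 and 90.2 in the BLZ945 tdT+ libraries, and 194, 437, 568 and 634 in the tdT- libraries. The tdT- libraries were the higher ones apart from F1, which lay under the highest vehicle library. Means rose from 126 ± 63.7 in vehicle to 458 ± 194 in tdT- cells (SD, n = 4), a shrunken log2 fold change of 1.44 ± 0.67 (SE, DESeq2 adjusted p = 0.0222). The edgeR adjusted p was 0.126, and the DESeq2 call was lost without tdT- M1 (0.0819), tdT- M2 (0.101), vehicle F1 (0.0828) or vehicle M1 (0.0938). BLZ945 tdT+ cells held 300.2 ± 154, and the difference from vehicle (unshrunken 1.26, 95% interval 0.13 to 2.38) had a DESeq2 adjusted p of 0.493.

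Il1a (chromosome 2, 129141530 to 129151892, minus strand), whose product is active without cleavage and acts as an alarm signal, had 97.2, 142, 51.1 and 209 in vehicle, 0, 187, 196 and 264 in BLZ945 tdT+ and 412, 475, 1468 and 415 in tdT- libraries, in the same order of mice. Every tdT- library lay above every tdT+ library, and tdT- M1 was far above the other tdT- libraries. Means were 125 ± 67.3, 162 ± 113 and 693 ± 518. The unshrunken log2 fold change was 2.10 (95% interval 0.25 to 3.94) against BLZ945 tdT+ cells and 2.47 (0.63 to 4.32) against vehicle, with DESeq2 adjusted p of 0.207 and 0.0988, and the shrunken values were 0.20 and 0.29. Without the BLZ945 tdT+ library F1, where Il1a had 0 counts, the adjusted p against vehicle was 0.000364 and the shrunken value 2.20. Without tdT- M1, the library at 1468, the adjusted p was 0.410 against vehicle and 0.587 against BLZ945 tdT+ cells, and the shrunken values were 0.17 and 0.12. Exons of the predicted gene Gm14023 on the other strand overlap Il1a, with 1101 counts in all against 3903 for Il1a, and reads were counted without strand.

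Il18 (chromosome 9, 50466127 to 50493140, plus strand), a cytokine that macrophages make constitutively and that caspase-1 matures, had 667, 548, 614 and 689 in vehicle, 784, 657, 738 and 649 in BLZ945 tdT+ and 841, 864, 1122 and 1068 in tdT- libraries. All 4 tdT- libraries were above all 8 tdT+ libraries. The mean of 974 ± 142 in tdT- cells was 1.55 times that of vehicle (629 ± 62.8), a shrunken log2 fold change of 0.55 ± 0.19 (DESeq2 adjusted p = 0.0173). The call was lost in edgeR (0.121) and without tdT- M1 (0.0839), tdT- M2 (0.0890), vehicle F2 (0.0860) or vehicle M1 (0.0738). Against BLZ945 tdT+ cells (707 ± 65.2) the difference of 0.46 (unshrunken, 95% interval 0.09 to 0.83) had a DESeq2 adjusted p of 0.142, and of 0.0276 when no filter on low counts was applied. As the groups did not overlap for Il18 and Il1a, tdT- cells necessarily held more of both in each of the 4 BLZ945 mice. They held more Il1b in 3 of 4. In the DESeq2 fit blocked by mouse the adjusted p between tdT- and tdT+ cells was 0.364 for Il18, 0.104 for Il1a and 0.672 for Il1b.

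The tdT- libraries M1 and M2 were the highest in Il18 and Il1b and also in microglial markers, which summed to 174921 in M1 and 114228 in M2 against 75648 in F1 and 78458 in F2. The tdT- library M1 had the most Il1a. The libraries here were sorted as CD206+ cells. For its stroke experiment the study describes microglia sorted as CD206- cells. The part of microglial RNA in these differences was not tested. In bulk RNA a different share of cells and a different amount of RNA per cell cannot be told apart. Without tdT- F2, the library with neutrophil markers, Il1b against vehicle had a shrunken log2 fold change of 1.34 (DESeq2 adjusted p = 0.0450) and Il18 one of 0.59 (0.0178).

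**Figure D3:**
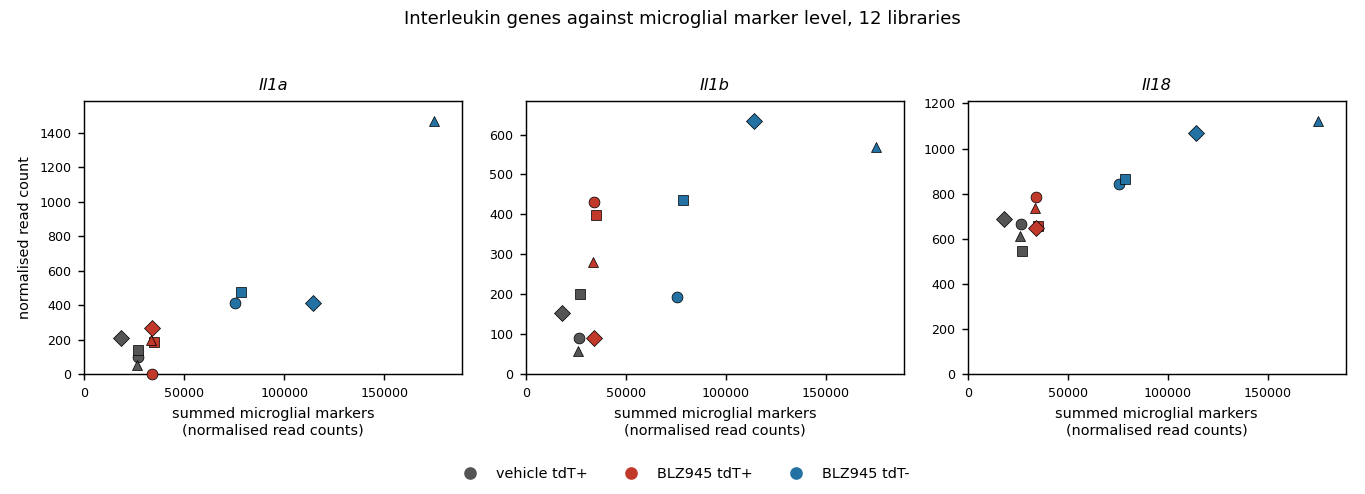
Normalised read counts of Il1a, Il1b and Il18 (vertical axes, linear) against the summed normalised counts of 4 microglial markers (horizontal axis, linear), 1 point per library, with the shape giving the mouse label as in the plot by library. The 4 tdT- libraries lie to the right of the 8 tdT+ libraries, and tdT- M1 has the most markers, Il1a and Il18.

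Il6 (chromosome 5, 30218112 to 30224979, plus strand), a cytokine of the acute phase response, had 0 counts in all 8 tdT+ libraries. By counting error alone, a count of 0 allows up to 3 counts, or between 2.60 and 3.15 normalised counts per library. The tdT- libraries had 0, 213, 74.9 and 83.2 normalised counts in F1, F2, M1 and M2. With the 3-count floor in each tdT+ library, the tdT- mean of 92.7 ± 88.4 was at least 31.6-fold higher than in BLZ945 tdT+ cells. Against vehicle cells it was at least 32.9-fold higher. These bounds cover counting error only. Within a group a 0 can stand beside many counts, as for Il1a in BLZ945 tdT+ libraries (0, 187, 196 and 264). Without F2, the library with neutrophil and monocyte markers, the bounds were at least 17.9-fold and 18.7-fold. The filter removed Il6 because 9 of 12 libraries had fewer than 10 counts. In the DESeq2 fit with no filter its adjusted p was 0.0191 and 0.0172 in these comparisons. These p-values compare the tdT- group, itself at 0 in F1, with groups at 0. The parts of neutrophil, monocyte and microglial RNA in this result were not tested.

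Tnf (chromosome 17, 35418357 to 35420983, minus strand), the prototype NF-kB-inducing and NF-kB-induced cytokine, had 83.2, 51.5, 84.8 and 242 in vehicle, 121, 221, 304 and 142 in BLZ945 tdT+ and 91.8, 135, 29.5 and 195 in tdT- libraries. All groups overlapped. The means were 115 ± 85.6, 197 ± 83.1 and 113 ± 69.8. The log2 difference of tdT- from tdT+ cells was -0.80 (unshrunken, 95% interval -2.15 to 0.54), which leaves a wide range of changes in either direction, and tdT- cells were the higher ones in 1 of 4 mice.

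The anti-inflammatory genes were near the limit of detection in several libraries. Il10 (chromosome 1, 130947582 to 130952711, plus strand), which restrains macrophage cytokine output, had 0, 71.3, 62.3 and 0 normalised counts in vehicle, 43.2, 30.4, 41.0 and 37.8 in BLZ945 tdT+ and 0, 52.7, 35.9 and 24.9 in tdT- libraries. It was thus counted in 2, 4 and 3 libraries of 4. Il1rn (chromosome 2, 24226865 to 24241506, plus strand) encodes the antagonist that occupies the IL-1 receptor without signalling. It had 133, 168, 60.6 and 21.6 in vehicle, 0, 0, 63.6 and 0 in BLZ945 tdT+ and 81.4, 0, 272 and 0 in tdT- libraries. It was counted in all 4 vehicle libraries and in 1 of 4 BLZ945 tdT+ libraries, M1, and the means were 95.98 ± 66.9 and 15.9 ± 31.8 (DESeq2 adjusted p = 0.965). Without that M1 library the BLZ945 tdT+ group is at 0, and DESeq2 gave adjusted p of 0.0158 against vehicle and 0.00369 for tdT- against tdT+ cells. The shrunken log2 fold changes were -0.0085 and 0.050, and 2 of 4 tdT- libraries were also at 0, so these p-values were not read as a difference.

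The sensor Nlrp3 (chromosome 11, 59432394 to 59457782, plus strand) had 488, 976, 545 and 368 normalised counts in vehicle, 677, 914, 494 and 633 in BLZ945 tdT+ and 1004, 714, 362 and 549 in tdT- libraries. Groups overlapped throughout. The means of 594 ± 265, 679.8 ± 175 and 657 ± 272 differed by -0.05 on the log2 scale between tdT- and tdT+ cells (unshrunken, 95% interval -0.82 to 0.72) and by 0.19 between BLZ945 and vehicle tdT+ cells (-0.57 to 0.96).

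Other genes of inflammasomes and cytokine release moved where Nlrp3 had no call. Of 13 tested, 1 was higher and 2 lower in tdT- than in tdT+ cells of BLZ945 mice, where 6.38% of all genes were called. Pycard, the adaptor ASC that joins the sensor to caspase-1, rose from 1452 ± 222 to 2594 ± 525 (shrunken log2 fold change 0.77 ± 0.19, DESeq2 adjusted p = 2.02e-04). P2rx7, the ATP-gated channel that triggers NLRP3, fell from 10466 ± 256 to 4971 ± 984 (-1.04 ± 0.14, 1.75e-12), and Txnip, a thioredoxin-binding protein that has been tied to NLRP3, fell from 28300.4 ± 1347 to 19503 ± 3890.4 (-0.50 ± 0.12, 3.76e-04). These 3 genes had no overlap between the groups, and were also called by edgeR, in the fit blocked by mouse and in all 12 fits that left out 1 library. The microglial markers given above differed between the same groups, and their part in these differences and in that of Il18bp was not tested. Between BLZ945 and vehicle tdT+ cells 0 of 13 passed by DESeq2 and by edgeR. Against vehicle, tdT- cells again had less P2rx7 (-0.99 ± 0.14, 1.50e-11) and more Pycard (0.53 ± 0.18, 0.0177). Txnip was not called against vehicle (-0.29 ± 0.12, 0.0895, edgeR 0.173), and its groups overlapped there. The Pycard call against vehicle was lost in edgeR (0.0888) and without tdT- M1 (0.0924) or M2 (0.0684) or vehicle F2 (0.0665), M1 (0.0682) or M2 (0.05001).

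Among 10 tested cytokine receptors and decoys, the decoy of IL-18 stood opposite to its ligand. Il18bp, a secreted protein that binds IL-18, had 1121, 894, 1033 and 983 normalised counts in vehicle, 492, 682, 589.6 and 706 in BLZ945 tdT+ and 442, 363, 364 and 321 in tdT- libraries, with no overlap between any pair of groups. It was lower in tdT- than in vehicle cells by a shrunken log2 fold change of -1.38 ± 0.21 (DESeq2 adjusted p = 1.14e-09) and than in BLZ945 tdT+ cells by -0.63 ± 0.22 (0.0126). The call between tdT- and tdT+ cells was lost in the fit blocked by mouse (0.235), in edgeR (0.0817) and without tdT- M2 (0.0590), tdT+ F2 (0.0673) or tdT+ M2 (0.0797). The BLZ945 tdT+ cells differed from vehicle by -0.57 ± 0.23 (0.0624). Exons of the abundant gene Numa1 overlap Il18bp. Il10ra, the ligand-binding chain of the IL-10 receptor, rose against vehicle in BLZ945 tdT+ cells (0.53 ± 0.14, 0.00245, edgeR 0.229) and in tdT- cells (0.79 ± 0.13, 5.81e-08). Il6ra, the IL-6 binding chain, was lower in tdT- than in vehicle cells (-0.57 ± 0.21, 0.0236), a call lost in edgeR (0.0688) and without tdT- M1 (0.0703) or M2 (0.0732) or vehicle F1 (0.0769), F2 (0.0748) or M1 (0.0833).

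**Figure D4:**
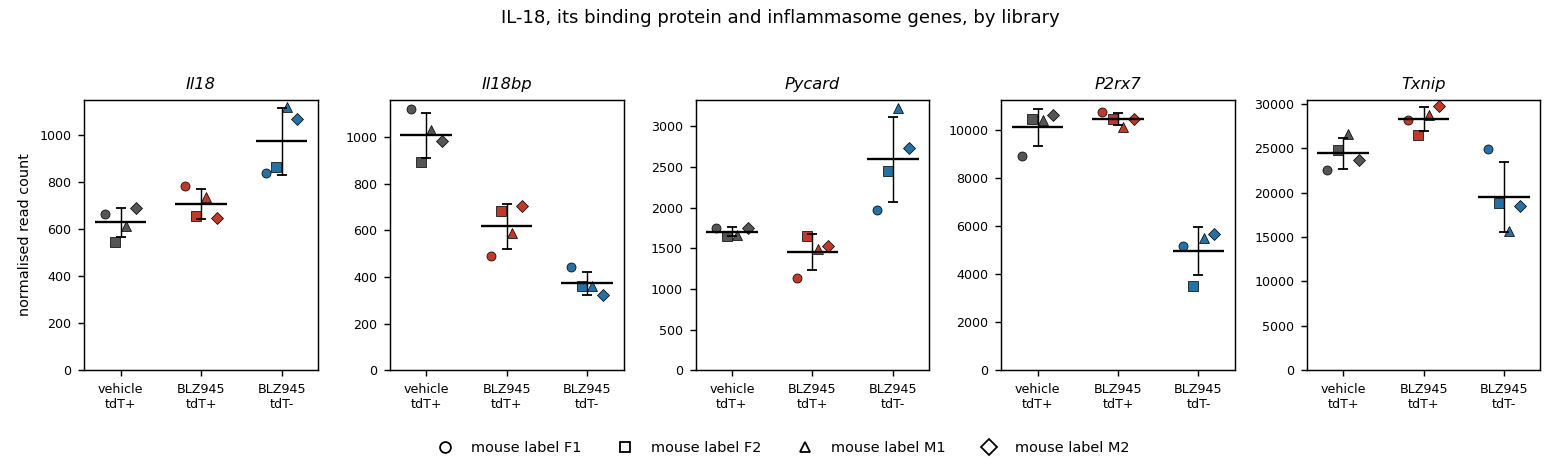
Normalised read counts of Il18, Il18bp, Pycard, P2rx7 and Txnip in the 3 groups (vertical axes, linear, with separate scales). Each point is a library, its shape gives the mouse label, and bars give mean and SD over 4 libraries. The tdT- libraries were the highest in Il18 and Pycard and the lowest in Il18bp and P2rx7.

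The NF-kB feedback inhibitors had no called difference. Nfkbia (chromosome 12, 55536195 to 55539432, minus strand) had 4879, 4803, 3743 and 2842 normalised counts in vehicle, 4857, 3263, 5581 and 4542 in BLZ945 tdT+ and 5900.0, 3645, 5094 and 5178 in tdT- libraries. The means of 4067 ± 967, 4561 ± 969 and 4954 ± 945 lay within 1 SD of one another, and the groups overlapped. The 95% interval of the unshrunken log2 difference ran from -0.30 to 0.54 between tdT- and tdT+ cells and from -0.26 to 0.59 between BLZ945 and vehicle tdT+ cells, so Nfkbia was the member with the narrowest limits after Il18. Tnfaip3 (chromosome 10, 18876658 to 18891405, minus strand) had 408, 670.5, 364 and 251 in vehicle, 651, 669, 629 and 202 in BLZ945 tdT+ and 902, 776, 1056 and 529 in tdT- libraries. It was higher in tdT- than in tdT+ cells in 4 of 4 mice, with overlapping groups, and the log2 difference from vehicle was 0.95 (unshrunken, 95% interval 0.11 to 1.78, DESeq2 adjusted p = 0.210).

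The rest of the pathway was likewise mostly without calls. Of all genes past the filter, 6.38% were called between tdT- and tdT+ cells of BLZ945 mice. Between BLZ945 and vehicle tdT+ cells 0.955% were called, and between tdT- and vehicle cells 6.76%. At these shares lists this short would hold few or no calls, so their low counts are not particular to NF-kB. The NF-kB subunits and IkB proteins (Rela, Nfkb1, Nfkbiz and others) had 0 of 10 called in each of the 3 comparisons by DESeq2 and by edgeR. Of 12 kinases and adaptors, only Traf2, an adaptor of TNF receptors, was called, higher in tdT- than in vehicle cells (0.70 ± 0.22, DESeq2 adjusted p = 0.00537, edgeR 0.0650, in the fit blocked by mouse label 0.0852). Against BLZ945 tdT+ cells its adjusted p was 0.0521. Of 14 other NF-kB target genes, Sod2, a mitochondrial superoxide dismutase, was higher in tdT- than in tdT+ cells (0.51 ± 0.20, 0.0379), and Ccl3, a chemokine, was higher in tdT- than in vehicle cells (0.98 ± 0.41, 0.0212). The Sod2 call was lost in the fit blocked by mouse (0.176), in edgeR (0.132) and without any of 8 libraries, which are tdT- F1 (0.144) and M1 (0.110), tdT+ F1 (0.0829), M1 (0.152) and M2 (0.0807), and vehicle F2 (0.0614), M1 (0.0576) and M2 (0.0520). The Ccl3 call was lost in edgeR (0.136) and without tdT- F1 (0.125), vehicle F2 (0.0671) or vehicle M1 (0.0918). Exons of the predicted gene Gm53692 overlap Ccl3. Without tdT- F2, the library with neutrophil markers, DESeq2 called 1020 of 13724 genes between tdT- and tdT+ cells, against 875 with all libraries. Of the 14 targets 3 were then higher in tdT- than in tdT+ cells. They are Sod2 (DESeq2 adjusted p = 0.0398), the adhesion molecule Icam1 (0.0260, with all libraries 0.0689) and the surface protein Cd83 (0.00184, with all libraries 0.0711). Traf2 was also higher (0.00746). The neutrophil-attracting chemokine Cxcl2 was at 0 in the other 3 tdT- libraries, and its adjusted p in that fit (0.000911 against tdT+ and 0.0157 against vehicle cells, with all libraries 0.987 and 0.873) compares a group at 0. The NF-kB subunit Relb was lower than in vehicle cells (0.0381). In the other lists the same fit had less Nlrc4, an inflammasome sensor (0.0122), and less Il1rap, the shared chain of the IL-1 receptor (0.00757), in tdT- than in tdT+ cells. It had less Il1rap (0.0381) and more of the immediate early gene Jund (0.0246) in tdT- than in vehicle cells, and more Ier2, of the same kind, in BLZ945 than in vehicle tdT+ cells (0.0238). Of 7 other macrophage cytokines, Tgfb1 was lower in tdT- than in tdT+ cells (-0.38 ± 0.11, 0.00461, in the fit blocked by mouse 0.0761, edgeR 0.0522) and than in vehicle cells (-0.46 ± 0.11, 2.11e-04).

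Where Nfkbia and Tnfaip3 had no call, 2 of 17 other NF-kB inhibitors and cytokine brakes were higher in both BLZ945 groups than in vehicle, and 0 of 17 were called between tdT- and tdT+ cells by DESeq2 and by edgeR. Zfp36, which encodes the protein tristetraprolin that destabilises Tnf mRNA, rose from 2778 ± 324 to 7886 ± 1287 in BLZ945 tdT+ cells (1.48 ± 0.14, DESeq2 adjusted p = 1.95e-23) and 7883 ± 669 in tdT- cells (1.48 ± 0.14, 1.20e-24). Dusp1, a phosphatase that switches off MAP kinases, rose from 488 ± 138 to 2550.5 ± 1007 (2.29 ± 0.34, 1.27e-09) and 1999 ± 611 (1.92 ± 0.34, 1.09e-07). Exons of the abundant gene Ergic1 overlap Dusp1. Zfp36 and Dusp1 are also immediate early genes that respond to tissue dissociation. Of 13 other genes of that kind, 2 were higher in BLZ945 tdT+ than in vehicle cells, Fos (2.34 ± 0.31, 6.74e-12) and Jun (1.61 ± 0.17, 1.45e-19), and 4 were higher in tdT- than in vehicle cells, Fos (2.18 ± 0.31, 2.92e-11), Jun (1.29 ± 0.17, 1.32e-13), Junb (1.37 ± 0.24, 8.20e-08) and Btg2 (0.57 ± 0.21, 0.0246). The Btg2 call was lost in edgeR (0.112) and without tdT- M1 (0.0635) or M2 (0.142) or vehicle F2 (0.111) or M1 (0.0619). Junb was also higher in tdT- than in tdT+ cells (0.78 ± 0.24, 0.00450, edgeR 0.0565), and exons of the abundant gene Prdx2 overlap it. The part of tissue dissociation in the difference of Zfp36 and Dusp1 was not tested.

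**Figure D5:**
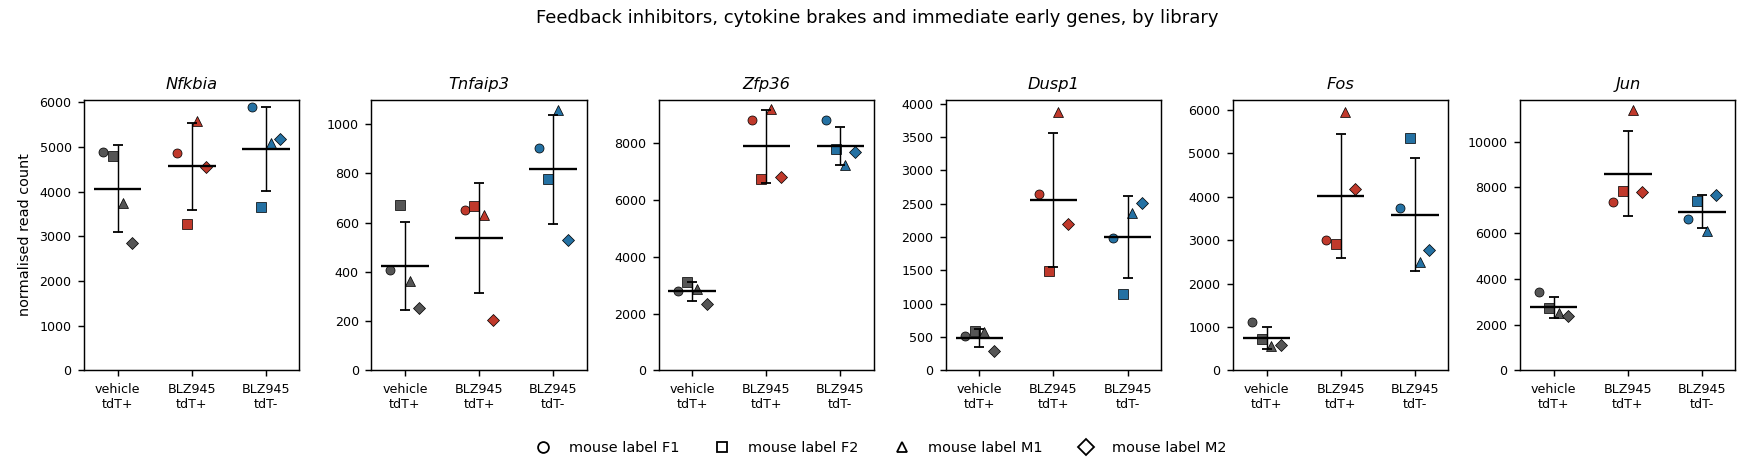
Normalised read counts of Nfkbia, Tnfaip3, Zfp36, Dusp1, Fos and Jun in the 3 groups (vertical axes, linear, with separate scales). Each point is a library, its shape gives the mouse label, and bars give mean and SD over 4 libraries. For Zfp36, Dusp1, Fos and Jun all 8 BLZ945 libraries lay above all 4 vehicle libraries, whereas Nfkbia and Tnfaip3 overlapped.

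How the 9 genes varied together was described over their 36 pairs. Pearson's r of the deviations from the group means across 12 libraries had a median of 0.00. The pair with the largest r in size was negative, Il18 with Nlrp3 at -0.83, and Tnf with Il1rn was at -0.53. In the positive direction 4 pairs were above 0.5, which are Il1rn with Tnfaip3 and with Nfkbia (0.61 each), Il1a with Il1rn (0.52) and Il1b with Il18 (0.52). Libraries share sequencing depth and cell makeup, so r is given as a description. Another r used variance-stabilised counts with the group means left in, so differences between groups enter it. By this r, over the same libraries, the gene closest to Il1a was the inflammasome adaptor Pycard (0.89). The closest to Il18 were Ecscr (0.97) and Tmem204 (0.95), and to Il1b Trit1 (0.92) and Hvcn1 (0.92). To Nfkbia it was Map10 (0.95), to Tnfaip3 Map2k1 (0.89) and Tgfbr1 (0.88), and to Tnf Usp19 (0.90).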

How the data were processed

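Bulk RNA-seq was measured in 12 libraries of 3 groups. The deposited table holds raw read counts for each gene and library, without pooling. Per the file headers, the authors counted with featureCounts 2.0.6 on GENCODE M33 exons (GRCm39, tdTomato added), without strand or multi-mapping reads. Per the labels, reads were aligned with STAR 2.7.11a, and libraries came from low-input RNA with PCR amplification, so counts are not independent molecules and the 3-count floor (1.28e-05% to 1.50e-05% of a library) covers counting error only. Overlapping genes cannot be separated without strand. For vehicle, the column numbered as mouse M2 is labelled M1, and its number was followed. The members, the gene lists and the promoter motif were chosen with earlier results of these data known.

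The filter dropped any gene that had under 10 counts in 75% or more of the libraries (9 of 12). DESeq2 1.42.0 in R 4.3.3 (two-sided Wald test, all 12 libraries, group as the only term, Benjamini-Hochberg) gave calls at an adjusted p of at most 0.05, and DEGs needed a shrunken log2 fold change (apeglm 1.24.0) of at least 1 in size. Of 13724 genes past the filter, DESeq2 gave 355 no adjusted p between tdT- and tdT+ cells and 91 in each comparison with vehicle, and these counted as not called. Both tools were tested on 1 set of simulated counts, drawn from spreads that edgeR estimated and without pairing by mouse. DESeq2 recovered more of the changed genes, but 36.6% of its calls there were false, far more than its threshold allows. With edgeR 7.04% of calls were false, which is close to the threshold. The share of false calls depends on how many genes change, so neither value is the error rate of the calls in the data. Alternatives were edgeR 4.0.16 (quasi-likelihood), TMM factors, no filter, the letter of the mouse label as a covariate, a block by mouse label, unshrunken values, and each library left out. The tdT- and tdT+ libraries of a label come from the same BLZ945 mouse, and their deviations from the group means correlated at 0.0144 to 0.0596 over 13724 genes. Named genes are the 10 members, up to 4 called genes with the smallest adjusted p from each list and, per member, the 2 genes with the highest Pearson r among genes averaging 100 or more normalised counts. Genes called only against vehicle or only without tdT- F2 were named after their values were seen. A further gene of the microglial marker list is not reported here and was left out of its sums. TPM used the exon lengths of the deposited table.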

Additional observations from a re-analysis of the deposited data

Results flagged for a closer look

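Within each group of 4 libraries, the highest or lowest library was compared with its nearest neighbour. Of 28 groups of values tested over the 10 genes, 3 had a library far from the others, and chance gives about 1 in 20. Il1a in the tdT- library M1 reached 1468 normalised counts, with a gap of 0.940 of the range of its group, whereas the other tdT- libraries held 412 to 475. That library also had the highest sum of microglial markers, 174921, and their part in the value was not tested. Il1rn in the BLZ945 tdT+ library M1 had 63.6 normalised counts. Its gap of 1 follows from the other 3 libraries being at 0. Tnfaip3 in the BLZ945 tdT+ library M2 had 202 normalised counts against 629 to 669 in the others (gap 0.913).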

How the results depend on the processing

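Of the members, 0 were called between tdT- and tdT+ cells, 0 between BLZ945 and vehicle tdT+ cells and 2 between tdT- and vehicle cells. With no filter on low counts, 2 were called between tdT- and tdT+ cells (Il6 and Il18), and with edgeR 0 between tdT- and vehicle cells. Leaving out 1 library gave 0 to 1, 0 to 1 and 0 to 3 called members, and 677 to 1020, 104 to 214 and 756 to 1097 called genes of 875, 131 and 928. The 214 were reached without tdT- F2. Over all genes edgeR called 377, 9 and 446, and for BLZ945 against vehicle tdT+ cells no filter gave 256 and the block by mouse label 389. Under that block 1 member, Il1rn, was called there (adjusted p = 0.00375), the adjusted p against vehicle was 0.0106 for Il1a in tdT- cells and 0.189 for Il18, and the shrunken log2 fold changes of Il1a in BLZ945 tdT+ cells and of Il10 in tdT- cells turned to -0.0018 and 0.011. Vehicle and BLZ945 mice share a label only. The paired block changed no member call between tdT- and tdT+ cells. Among listed genes it also called Tnip3 (adjusted p = 0.0299) and Cxcl2 (0.0114). With the letter as a covariate Tnf in tdT- against vehicle cells turned to 0.015. The remaining reversals came with 1 library left out, where uncalled shrunken log2 values crossed 0. Their ranges were -0.021 to 0.0001 (Il10), -0.13 to 0.057 (Nlrp3) and -0.0069 to 0.16 (Nfkbia) in tdT- against tdT+ cells, -0.0011 to 0.0046 (Il10) in BLZ945 against vehicle tdT+ cells, and -0.070 to 0.099 (Tnf), -0.024 to 0.011 (Il10), -0.024 to 0.0082 (Il1rn) and -0.054 to 0.22 (Nlrp3) in tdT- against vehicle cells. The cause of each change was not tested. TMM moved the median of all genes by -0.03 to -0.01. At this depth Il6, Il10 and Il1rn were limited by counts of 0.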
